A study of Macaca mulatta with 4 samples.

Results

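The compact shared regions are short stretches of the rhesus macaque (Macaca mulatta) genome in which DNase I hotspots were called in every one of 4 morula libraries. They were chosen from the hotspot lists themselves. Hotspots of the 4 lists that overlapped or touched were joined into merged regions, and a region was kept when each library had at least 1 hotspot in it, it lay on chromosomes 1 to 20, its merged width was under 5000 bp and it held no hotspot from the top 1% of scores of its own list. This gave 10534 members out of 222970 merged regions, or 4.73% of the 222776 on autosomes. Another 1367 regions met the other conditions but were 5000 bp or wider, and 1257 were dropped for a top-scoring hotspot, 1055 of them under 5000 bp wide.

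The libraries came from morulae, the ball of cells that precedes the blastocyst. There were 2 libraries of androgenetic (AG) embryos, whose nuclear genome comes from sperm, and 2 of gynogenetic (GG) embryos, whose nuclear genome comes from the oocyte. The DNase I digestion of all 4 ran for 5 min at 37 °C with 40 U/ml of enzyme. No other treatment is labelled. The sources used here do not give how the embryos were made, their number per library or their parents, and any such difference between AG and GG embryos cannot be told apart from parental origin. Nothing in the labels ties the replicates to separate embryos, so p-values measure only the spread between these libraries, which may be technical.

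DNase I cuts DNA more readily where nucleosomes are displaced, and a hotspot is a stretch with more cuts than its surroundings. In mammalian cells, sites open in many cell types are often promoters of widely used genes or sites bound by the insulator protein CTCF, while sites open in 1 cell type are more often enhancers. In imprinting, which the study addresses by its title, a small set of genes is marked by parental origin, while most genes can be used from either parent's copy. Regions open in both AG and GG embryos are the part of the open chromatin found on chromosomes of either origin. Positions are on the rheMac8 build, counted from 1. They were not matched to genes or sequence, because no genome or annotation of that build was used here.

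Every list was measured on its own scale. The AG lists held 64730 (replicate 1) and 85318 (replicate 2) hotspots, the GG lists 93171 and 84865. Depth is unknown, since the lists give positions and scores without counts of reads, and no counting interval can be given. List length may reflect depth.

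The members were few but held a large part of each list. They took in 11473 and 11309 hotspots of the AG lists and 11558 and 11641 of the GG lists (here and below, replicate 1 is given first). As a share of all covered bp, members made up 25.3% and 19.4% in AG and 19.7% and 21.0% in GG. The shortest list, AG replicate 1, had the highest share, and the groups overlapped. AG exceeded GG by 1.99 percentage points in the means (two-sided exact permutation p = 1). Leaving out AG replicate 1 turned this difference to -1.37, leaving out AG replicate 2 raised it to 5.94 and leaving out GG replicate 2 gave 3.85. By number of hotspots the shares were 17.7% and 13.3% in AG and 12.4% and 13.7% in GG, a difference of 2.43 percentage points (two-sided exact permutation p = 0.667). It came to 0.351, 6.59 and 4.03 with these libraries left out in the same order. The rule put at least 1 hotspot of each library in every member, so the numbers in members were near equal. The share by number therefore largely followed list length, and its test says little beyond that. With all lists cut by score to the length of the shortest, both differences changed sign, to -0.284 by bp and -0.0201 by number.

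A shared region was seldom shared along its whole length. Members had a median merged width of 2703 bp (25th to 75th percentile, 2047 to 3483 bp), against a median of 756 bp for autosomal regions called in 1 library and 1900 bp for those called in 3. Merged width joins the hotspots of all libraries, so it tends to grow with the number of libraries. Together the members spanned 29.4 Mb. Of these bases, 27.3% were covered in 1 library, 23.8% in 2, 21.7% in 3 and 27.2% in all 4. The bases common to all 4 libraries, here called the core, had a median length of 763 bp and made up a median of 29.5% of the merged width. In 1560 members (14.8%) the core made up at least 50% of the width.

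In 1335 members (12.7%) no base was covered in all 4 libraries, so that these were joined only as a chain of overlapping or touching hotspots. The name of a region open in every library thus holds for them as a neighbourhood and not as a position. They were wider than members with a core (median 2950 against 2656 bp). In 65 of them every pair of libraries did share bases, but not the same ones. The AG libraries shared no base with each other in 435 members and the GG libraries in 235, while for the 4 mixed pairs, of 1 AG and 1 GG library, the number was 261 to 357. Most members were simple in layout: 7760 (73.7%) had exactly 1 hotspot in each library, and 914 of these lacked a core.

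**Figure D1:**
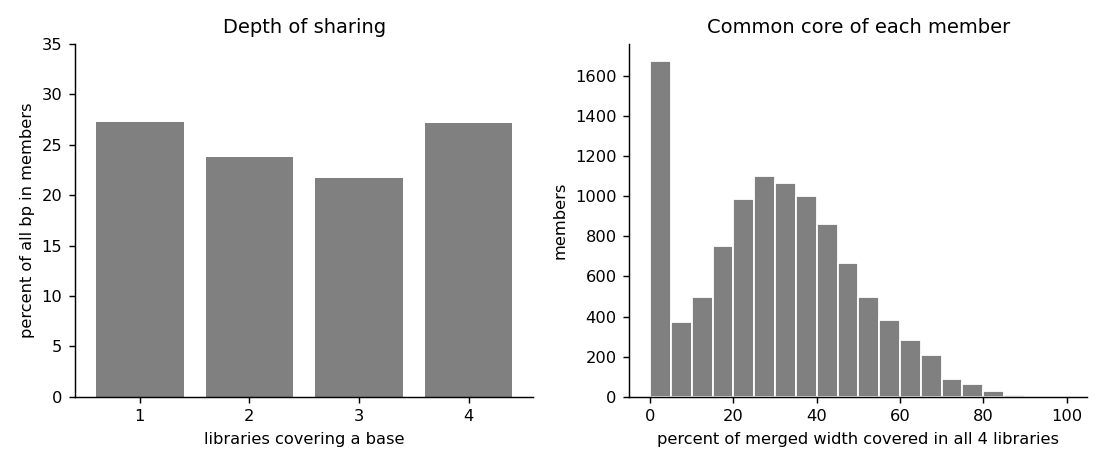
Left, percent of all bp in the 10534 members that were covered in 1, 2, 3 or 4 libraries. Right, number of members by the percent of merged width covered in all 4 libraries, in steps of 5%. The 4 classes on the left are of like size (21.7 to 27.3%), and the leftmost bar on the right includes the 1335 members with no common base.

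The position of a hotspot varied between libraries by part of its length. Among the 7760 members with 1 hotspot per library, hotspot centres lay a median of 251 bp apart between the GG libraries and 267 bp apart between the AG libraries. In the mixed pairs the median distance was 269 to 283 bp, so that a GG library sat about as close to an AG library as the AG libraries sat to each other. The Jaccard index (shared over total covered bp inside members) was 0.575 for the GG pair, 0.501 for the AG pair and 0.487 to 0.503 for the 4 mixed pairs. Only the GG pair stood above the mixed pairs. The mean index within groups exceeded that between groups by 0.0425, by 0.00962 without GG replicate 1 and by 0.00551 without GG replicate 2. It exceeded it by 0.0864 without AG replicate 1 and by 0.0758 without AG replicate 2. With only 3 ways to split 4 libraries into pairs, this carries no test.

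The best hotspots in most members ranked high in their lists. The score of a hotspot is the authors' own, and a percentile here is the percent of hotspots in the same list with a score at or below it. The rule removed the top 1%, so no percentile could exceed 99. The median percentile of a member's best hotspot was 80.5 and 83.1 in AG and 86.3 and 85.6 in GG. Lists differ in length, so these percentiles do not compare libraries. The spread was nevertheless wide. Between 10.2% (GG replicate 1) and 17.0% (AG replicate 1) of members had their best hotspot in the lower 50% of the list. In 789 members (7.49%) all 4 libraries reached percentile 90.

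Score and position went together as a description. The lowest of a member's 4 percentiles had a median of 30.8 in members without a core and 65.2 in those with one. In the 2108 members with the lowest weakest percentile (median 15.2), 29.5% lacked a core. In the 2107 with the highest (median 88.4), 0.759% lacked one and the median core was 1138 bp, against 344 bp. Members with more covered bp in a library tended to have a higher best score there. The Spearman rho between best score and total covered length was 0.482 to 0.529 over the 10534 members of each library. This is a correlation across regions, which share a library and are not replicates.

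The members with the highest score in every list, by the lowest of their 4 percentiles, were led by chromosome 2 from 104597912 to 104601178. Hotspots there covered 2004 and 2887 bp in AG and 3010 and 2192 bp in GG, and its weakest percentile was 98.6. AG and GG lengths overlapped, and all 4 libraries shared 1624 bp, from 104599175 to 104600798. Next came chromosome 15 from 77748541 to 77752219, where the lengths were 1495 and 2153 bp in AG against 3679 and 1080 bp in GG. Here the GG libraries were the farthest apart, with GG replicate 1 covering the whole region. On chromosome 19 from 53523902 to 53527996, AG covered 3060 and 3075 bp and GG 4095 and 2102 bp. The AG libraries were nearly equal in length there and lay between the GG libraries. Chromosome 7 from 167654306 to 167656769, chromosome 2 from 135718138 to 135722004 and chromosome 9 from 96711286 to 96714857 completed the leading 6, with cores of 1065, 1469 and 1888 bp. The cores of these 6 made up 28.8 to 52.9% of the width.

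The member with the highest core share was chromosome 2 from 122042482 to 122043560, 1079 bp wide. Its covered lengths were 1002 and 1013 bp in AG and 1058 and 1014 bp in GG, and 92.0% of the width was common to all. Its score was low in AG replicate 1, at percentile 12.9. Both runners-up lay on chromosome 19. The member from 20813957 to 20816397 had a core of 91.2% and that from 11602119 to 11604324 one of 90.1%, with covered lengths of 2283 to 2411 bp and 2035 to 2186 bp. Both scored high in every list, with weakest percentiles of 86.6 and 89.5. The narrowest member of all, singled out after its values were seen, was chromosome 10 from 92830157 to 92830513. It was 357 bp wide and had 335 and 354 bp covered in AG and 339 and 301 bp in GG.

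The width limit cut through a continuous range. Just under it lay chromosome 1 from 162089850 to 162094848 (4999 bp) and chromosome 2 from 30417627 to 30422624 (4998 bp), with cores of 1119 and 788 bp. Just over it lay chromosome 5 from 85361800 to 85366799 (5000 bp) and chromosome 10 from 78316542 to 78321543 (5002 bp), with cores of 848 and 1815 bp.

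Covered length, which the rule bounded but did not fix, differed between the AG and GG libraries. The whole lists also covered less in AG, 67.8 and 84.3 Mb, than in GG, 102 and 93.2 Mb. A member had on average 1627 and 1555 bp covered in AG, and 1914 and 1856 bp in GG. Both GG libraries were above both AG libraries. The group means were 1591 ± 51.3 bp in AG and 1885 ± 41.0 bp in GG (SD, n = 2 libraries each), a 1.18-fold difference that was larger than the spread between replicates. The two-sided exact permutation p was 0.333, the smallest that 2 libraries against 2 can give. The difference of -294 bp (AG minus GG) ranged from -319 to -221 bp when each library in turn was left out, and was -311 bp with all lists cut to the length of the shortest. Where each library had to cover at least 50% of a member, which limits how far lengths can differ, it was -101 bp, and with widths under 3000 bp it was -154 bp.

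The longer hotspots of the GG libraries were seen in the members more than in the rest of the lists. In members, the median length of a hotspot was 1227 and 1197 bp in AG and 1556 and 1406 bp in GG. Elsewhere in the same lists it was 843 and 847 bp in AG and 856 and 869 bp in GG. The GG over AG ratio of these medians was 1.22 in members and 1.02 elsewhere. The log2 ratio of members to elsewhere was 0.54 and 0.50 in AG and 0.86 and 0.69 in GG, so that the libraries of the groups did not overlap (two-sided exact permutation p = 0.333). By mean covered bp where called, the ratio was 0.999 for autosomal regions called in 1 library, 1.10 for those called in 2, 1.17 for those called in 3 and 1.18 for the members. It was 1.14 for regions under 5000 bp with a top-scoring hotspot and 1.34 for the broad shared regions, whose width the rule selected. The ratio thus rose from regions called in 1 library to those called in 3, and the members were near the latter. Shared regions with a top-scoring hotspot were below those called in 3. For regions called in fewer than 4 libraries, the AG and GG means come from partly or wholly different regions. Within the members the ratio went from 1.05 in the 2461 under 2000 bp wide to 1.28 in the 1488 of 4000 bp or more, but merged width is itself set by these hotspots.

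The extra length lay on both sides. Among members with 1 hotspot per library, a GG hotspot began a median of 63 to 108 bp before the AG hotspot and ended 68 to 102 bp after it, over the 4 mixed pairs. Within groups the median signed difference, replicate 1 minus replicate 2, was -13 bp (AG) and -19 bp (GG) for starts. For ends it was 23 and 10 bp. In these signed medians, shifts in opposite directions cancel. Without regard to sign, starts lay a median of 318.5 bp (AG) and 292 bp (GG) apart within groups, and 340 to 357 bp in the mixed pairs. Ends lay 304 and 285 bp apart within groups, and 327 to 333.5 bp in the mixed pairs.

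As called, covered lengths came in steps of about 1 kb. The program that called the hotspots is not named in the sources used here, so a step in the regions cannot be told apart from a step in the calling. In every library the number of members per 100 bp of covered length peaked at 1100 to 1200 bp, rose again at 2000 to 2200 bp and again at 3000 to 3200 bp. The libraries had these peaks at about the same lengths and differed in how many members each peak held. The 100 bp from 1100 held 1114 and 1227 members in AG and 721 and 863 in GG. The share of members with under 1500 bp covered was 53.6% and 58.2% in AG and 39.2% and 42.8% in GG. The share with 2500 bp or more was 12.8% and 11.3% in AG and 23.9% and 22.4% in GG, a 1.92-fold difference of the means (12.1 ± 1.04% and 23.1 ± 1.05%, SD, n = 2 each, two-sided exact permutation p = 0.333). In the called lengths, both GG libraries thus had a smaller share of members under 1500 bp and a larger share at 2500 bp or more than both AG libraries.

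**Figure D2:**
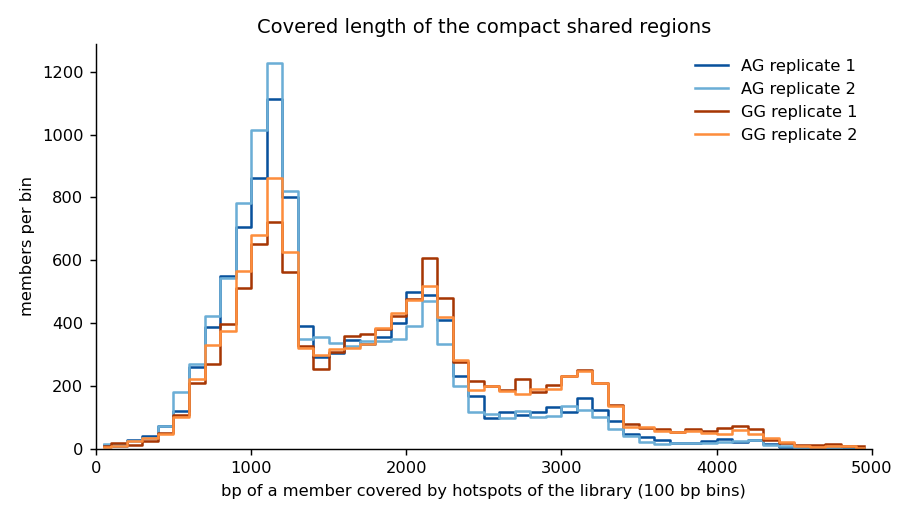
Number of members (vertical axis) by the bp covered by hotspots of a library (horizontal axis, bins of 100 bp), 1 line per library. All 4 lines peak near 1100, 2100 and 3100 bp, with the AG lines higher at the first peak (1114 and 1227 members against 721 and 863) and the GG lines higher at the third.

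Member by member, the shift was common but not general. Both AG libraries had less covered length than both GG libraries in 3464 members (32.9%), against 34.6% of all 13158 autosomal regions called in 4 libraries. Both AG libraries had more in 1344 members (12.8%), against 12.5% of all. The members' shares were near these backgrounds, of which the members themselves are the larger part. In the 1367 broad shared regions the shares were 48.7% and 10.1%. In the remaining members the groups overlapped.

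By limma on log2 of covered bp plus 100 bp, with each library centred on its median, no member and none of the 13158 regions passed a Benjamini-Hochberg adjusted p of 0.05 (0% called). The smallest adjusted p was 0.229 among members. At an unadjusted p under 0.05 there were 1216 members (11.5%), against 12.2% of all regions tested, of which 840 were higher in AG (background 7.72%) and 376 lower (background 4.45%). That split depended on centring. The median log2 difference over all regions tested was 0.12 with libraries centred on the median and -0.24 without centring, where 311 members were higher in AG and 1119 lower (backgrounds 2.88% and 11.8%). The median over members was 0.14 and -0.22. For the first member named in each direction, the raw ratio of covered bp is therefore given beside the log2 difference with and without centring. With regions called in at least 2 libraries tested together, 106 members passed an adjusted p of 0.05 by limma, 90 higher in AG and 16 lower. In that fit 8.22% of 55847 regions were called higher in AG and 20.3% lower. Of these 15926 calls, 15700 were regions with no hotspot in 1 group. Such regions entered this fit only through the group in which they were called, and they share its adjustment with the members. The 106 are therefore not a separate result about members. For the member on chromosome 11 from 52929565, the log2 difference was 2.41 in the main fit and 2.48 here. Its limma adjusted p was 0.229 and 0.014.

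The members longest in AG relative to GG, by smallest p, began with chromosome 11 from 52929565 to 52934105. Hotspots covered 4227 and 3839 bp of it in AG and 986 and 809 bp in GG. Every AG value was above every GG value, by 4.49-fold in the mean covered bp. The centred log2 difference, which includes the offset of 100 bp, was 2.41 (SE 0.34), and 2.05 without centring. The limma adjusted p was 0.229 here and for the next 6 named members, and 0.239 for the last. All 4 libraries shared 577 bp, so GG embryos were called over a short part of the stretch called in AG embryos. On chromosome 3 from 183603859 to 183606278 the lengths were 1819 and 2261 bp in AG and 411 and 229 bp in GG. This member had no core, since the GG hotspots overlapped the AG hotspots but not each other. Chromosome 19 from 44874505 to 44878324 had 3820 and 2318 bp in AG and 644 and 659 bp in GG, also without a core. Chromosome 1 from 5790568 to 5793447 had 2140 and 2310 bp in AG and 435 and 601 bp in GG. Each of these 4 members had long coverage in AG and a short call in GG. In the first, the AG replicate 2 coverage came from 2 separate hotspots.

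The mirror image was led by chromosome 10 from 5307560 to 5311923, with 715 and 739 bp covered in AG and 4123 and 4257 bp in GG. The GG libraries covered nearly the whole region, 5.76-fold more bp than AG, and the core was 476 bp. The centred log2 difference, with the offset, was -2.02 (SE 0.34), and -2.37 without centring. Chromosome 13 from 17385018 to 17389657 had 728 and 485 bp in AG and 3279 and 3929 bp in GG, with only 43 bp common to all. Chromosome 11 from 33107904 to 33112020 had 517 and 674 bp in AG and 3369 and 3313 bp in GG and no core. Chromosome 2 from 84392897 to 84397745 had 978 and 810 bp in AG and 4402 and 4145 bp in GG. In 3 of these 4 members an AG library scored below percentile 15 of its list (12.9, 14.9 and 11.2), and in the member on chromosome 11 the weakest percentile was 53.7. For the 4 members longer in AG, the weakest percentiles were 32.5, 3.76, 41.1 and 27.3 in the order named, each in a GG library.

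**Figure D3:**
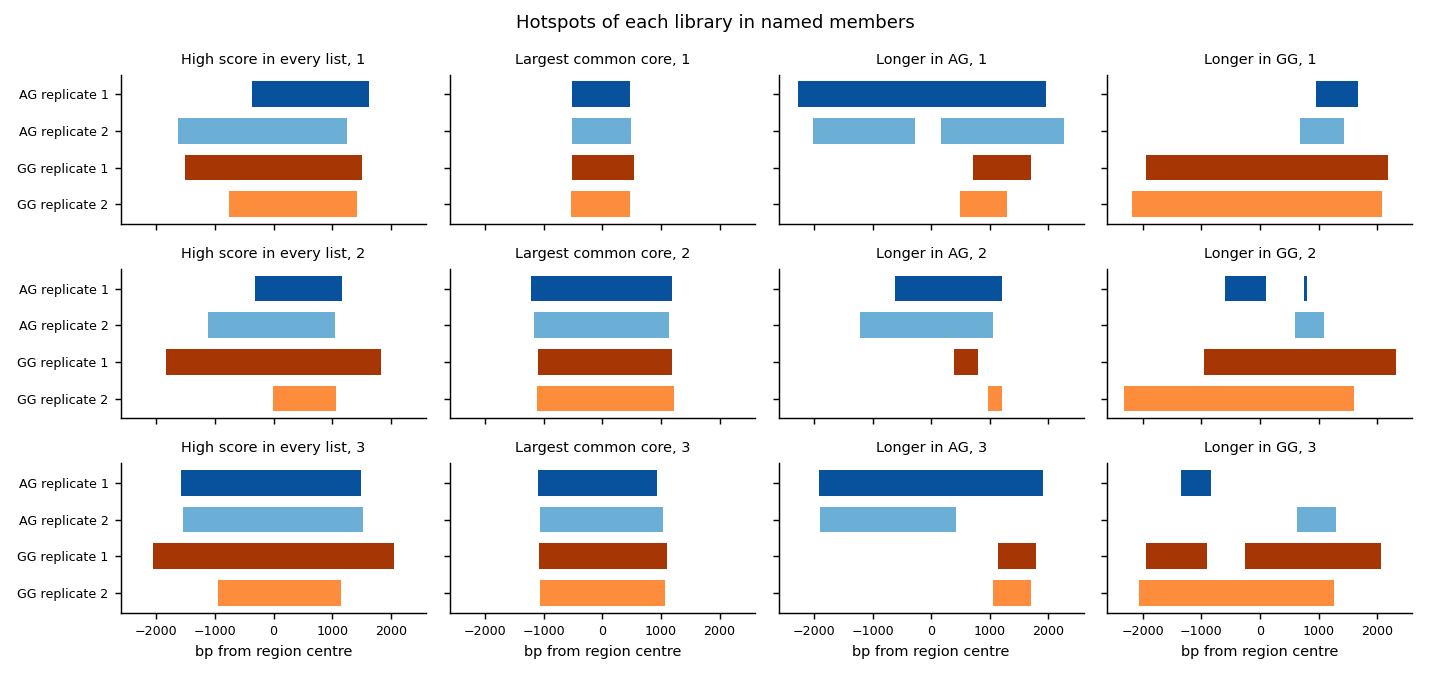
Hotspots of each library (rows) in 12 named members, as bp from the centre of the merged region: the leading 3 by score in every list, by core share, and by smallest p for longer coverage in AG and in GG. The members with the largest core have matched ends. Those longer in 1 group pair long coverage, in some libraries from 2 hotspots, with short coverage. In the first member longer in AG this was 4227 and 3839 bp against 986 and 809 bp.

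Members were crowded on a few chromosomes. There were 3.94 per Mb over all autosomes, 14.6 on chromosome 19, 7.99 on chromosome 16, 5.79 on chromosome 10 and 5.47 on chromosome 20. Chromosomes 5 and 17 had the fewest, 2.12 each. Chromosome 19 held 7.45% of members and 3.10% of all merged autosomal regions, so that 11.4% of its merged regions were members, against 4.73% over all autosomes. On chromosome 5 this share was 2.94%. Members lay a median of 76.2 kb from the next (25th to 75th percentile, 26.4 to 219 kb), and 314 gaps were under 1 kb.

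Of 2683 windows of 1 Mb, 619 (23.1%) held no member, and the fullest 10% of windows held 36.6% of members. The fullest was chromosome 19 from 51000001 to 52000000 with 33 members, followed by chromosome 20 from 28000001 to 29000000 with 32. The closest neighbours were 10 bp apart on chromosome 1, from 123675588 to 123680304 and from 123680315 to 123682312. In both, the AG libraries had more covered than the GG libraries (4309 and 4215 against 1047 and 1665 bp, then 897 and 1007 against 102 and 703 bp). The most isolated member, chromosome 5 from 133146861 to 133149010, was 4.73 Mb from any other. It had 439 and 764 bp covered in AG and 2150 and 455 bp in GG, a difference that rested on GG replicate 1.

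The AG to GG length difference changed with the crowding of members, a comparison added once the values were known. In the 926 members with at most 1 other member within 500 kb, covered length averaged 1421 and 1386 bp in AG and 1861 and 1816 bp in GG, a 1.31-fold difference. In the 2360 members with 13 or more neighbours it averaged 1684 and 1640 bp in AG and 1870 and 1778 bp in GG, a 1.10-fold difference. In both AG libraries the mean was higher in each of the 5 classes of crowding than in the class before, while GG lengths were highest in members with 4 to 6 neighbours. On the log2 scale, crowded over isolated members came to 0.24 in each AG library (0.244 ± 0.00111, SD, n = 2), and to 0.01 and -0.03 in GG replicates 1 and 2 (-0.0119 ± 0.0270). The AG minus GG difference of these contrasts was 0.26, with a two-sided exact permutation p of 0.333, the smallest possible. It was 0.23 without chromosome 19, and between 0.21 and 0.24 when each library was left out. Where each library had to cover at least 50% of a member it was 0.00438, and the AG and GG libraries overlapped. That condition limits how far lengths can differ, but its part in this value was not tested.

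Scores and cores moved with crowding as well. The median weakest percentile was 54.9 in isolated and 65.2 in crowded members, and 15.0% and 9.62% had no core. Their part in the length contrast was not tested. The GG over AG ratio was 1.17 to 1.20 in all 5 equal classes of the weakest percentile, from lowest to highest scores. These classes were not split by crowding, so they do not bear on the crowding contrast.

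**Figure D4:**
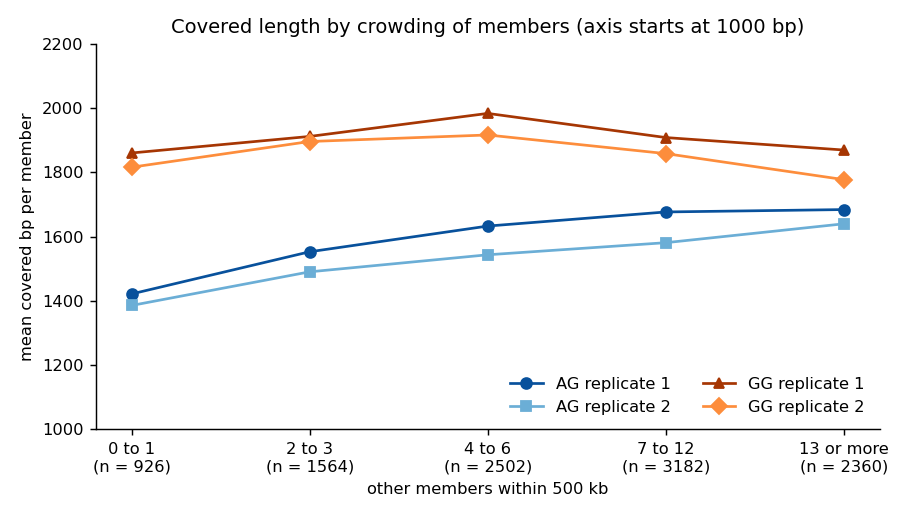
Mean covered bp per member (vertical axis, starting at 1000 bp) in each library for 5 classes of members by the number of other members within 500 kb. The GG lines lie above the AG lines throughout, and the distance shrinks from 1.31-fold in isolated to 1.10-fold in crowded members.

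The same order was seen across chromosomes, also compared once the values were known. Members per Mb is another measure of crowding, taken on the same members and libraries, so this is not independent of the contrast above. On chromosome 19 covered length averaged 1617 and 1603 bp in AG and 1697 and 1591 bp in GG, so that the groups overlapped. On the other 19 autosomes both AG libraries were below both GG libraries. The GG over AG ratio was 1.02 on chromosome 19, 1.08 on chromosome 20, 1.09 on chromosome 10, 1.27 on chromosome 5, 1.30 on chromosome 12 and 1.31 on chromosome 17. Chromosome 17 had 1556 and 1425 bp in AG and 1981 and 1926 bp in GG. Across the 20 autosomes the AG over GG ratio and the number of members per Mb had a Spearman rho of 0.833, and of 0.805 over 19 without chromosome 19, as a description of chromosomes that share the same 4 libraries. The log2 contrast of chromosome 19 over the other autosomes was -0.01 and 0.05 in AG and -0.19 and -0.24 in GG. These contrasts differed by 0.23 between AG and GG (two-sided exact permutation p = 0.333), and by 0.20 to 0.26 with 1 library left out. Where each library had to cover at least 50% of a member, the difference was 0.05 (two-sided exact permutation p = 0.667), and the groups overlapped.

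**Figure D5:**
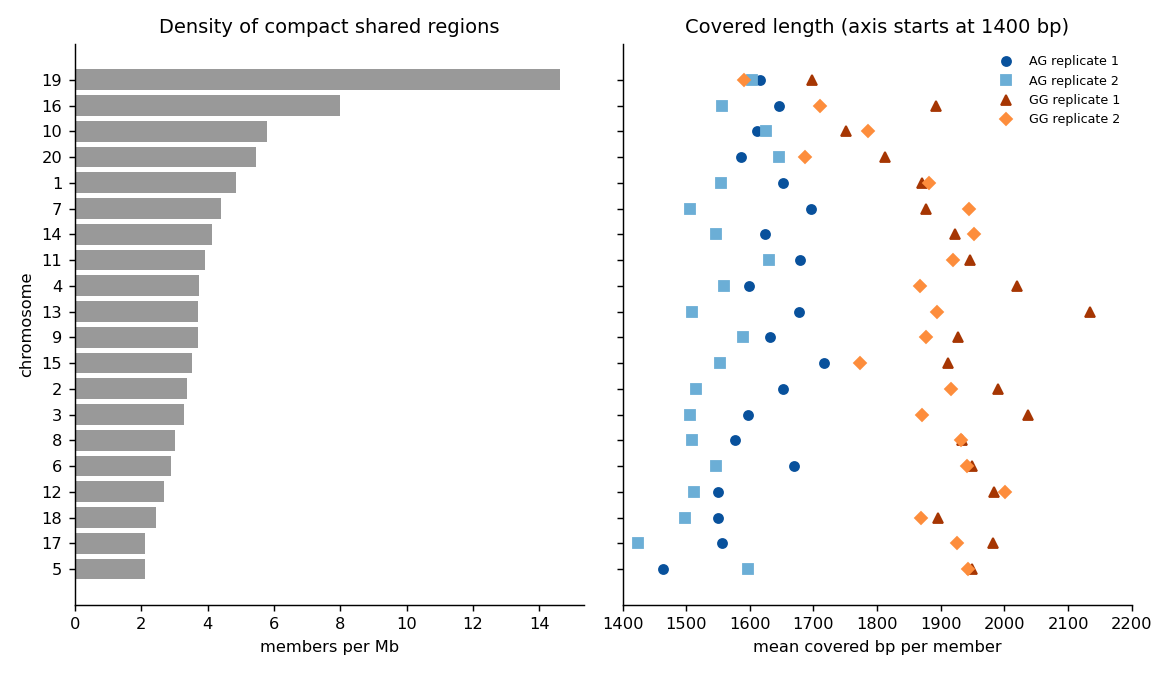
Members per Mb (left) and mean covered bp per member in each library (right, axis starting at 1400 bp) for 20 autosomes, ordered by density. AG and GG points meet on chromosome 19, which has 14.6 members per Mb, and stand apart on chromosomes 5 and 17, with 2.12 each.

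On chromosome 19 both AG libraries were below both GG libraries in 21.9% of members and above them in 20.9%. On chromosome 17 these shares were 40.9% and 8.87%. Over all 13158 regions called in 4 libraries they were 34.6% and 12.5%. Members on chromosome 19 were also narrower than elsewhere (median merged width 2295 bp, against 2540 to 2879 bp on other autosomes), had the highest median weakest percentile of any autosome (67.0) and the fewest without a core (8.28%). The part of width and score in the length difference there was not tested.

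Distance from the end of a chromosome gave a smaller range. Members within 5 Mb of an end (1086) had a GG over AG ratio of 1.13, those at 5 to 20 Mb 1.17, those at 20 to 50 Mb 1.18 and those over 50 Mb away 1.23. In the members nearest the ends, AG covered 1604 and 1524 bp and GG 1823 and 1708 bp. In those farthest away, AG covered 1640 and 1549 bp and GG 1976 and 1939 bp. Over the 4 distances the AG means spanned 1564 to 1597 bp and the GG means 1766 to 1958 bp.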

How the data were processed

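Per the labels, DNase-seq was done on 4 morula libraries, 2 AG and 2 GG. Each library has its own hotspot list, deposited by the authors, with a false discovery rate of 0.01 in its name and a score per hotspot. The sources used here do not give the hotspot caller or the score's scale, so the deposited score was used within its list. The submitters' processing notes name rheMac8 as build, and Bowtie2, deepTools 3.3.1, SAMtools and Trim Galore without their roles.

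Hotspots were merged, and covered bp, core and percentiles were computed per region and library. Group means were compared by exact two-sided permutation tests, and log2(covered bp + 100) over all 13158 autosomal regions called in 4 libraries with limma (lmFit, eBayes, Benjamini-Hochberg), without the replicate number as a block. Merging and base overlap were tested on planted intervals, and the limma step on simulated lengths. Members and lists were chosen with earlier results of these data known. The rule named 6 members by weakest percentile, 4 per direction by limma p, 3 by core share among widths of at least 500 bp, 2 on each side of the width limit, the closest pair and the most isolated. The narrowest member and the fullest windows were picked after their values were seen.

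The alternatives tried were higher-scoring or shortened lists, other width limits, top-scoring regions kept, hotspots within 150 bp merged, 50% coverage, leaving out each library, other offsets and centrings, a variance trend, a replicate block and regions called in at least 2 libraries. The crowding and chromosome 19 contrasts, and as alternatives members with a core, members with 1 hotspot per library, centring on the mean and leaving out chromosome 19 were added after the data were seen. Motifs, promoters and gene names were not analysed here. Software was limma 3.58.1 in R 4.3.3, and scipy 1.17.1, numpy 2.4.6, matplotlib 3.10.9 and pandas 2.3.3 in Python 3.11.15.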

Additional observations from a re-analysis of the deposited data

Results flagged for a closer look

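Outside the members, 8 regions on chromosome X were called in all 4 libraries, in data that the comparisons did not use. The lists held few regions there: of 222970 merged regions, 222776 lay on chromosomes 1 to 20. They were 645 to 944 bp wide, and each held a hotspot from the top 1% of its list.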

How the results depend on the processing

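Lists without read counts, 2 libraries per group and a smallest p of 0.333 limit every comparison. With 1 library left out, members were rebuilt from the other 3, and a lone library was assumed to vary like the other group. The number of members, 10534, was 6512 in the higher-scoring 50% of each list, 6271 with widths under 3000 bp and 3061 with 50% coverage in each library. The median core share, 29.5%, was 34.9%, 35.1% and 50.2% in these settings, 31.2% with shortened lists, 28.1% with widths under 10000 bp, 30.7% with top-scoring regions kept, 28.8% with hotspots within 150 bp merged, 32.6% in members with a core, 33.6% in members with 1 hotspot per library, and 36.4 to 37.5% with 1 library left out. The excess of the Jaccard index within groups, 0.0425, was 0.0295 under 3000 bp, 0.0505 under 10000 bp, 0.0167 with 50% coverage and 0.00551 to 0.0864 with 1 library left out. The difference in the share of covered bp turned to -0.284 with shortened lists (-0.0201 by number of hotspots), and ranged from -1.37 to 5.94 with 1 library left out. No left-out library or other alternative turned the direction of mean covered bp, of the crowding contrast or of the chromosome 19 contrast. With 50% coverage, though, the crowding contrast was 0.00438 and the chromosome 19 contrast 0.0485. The AG and GG libraries then overlapped in both contrasts. By limma, 0 members passed an adjusted p of 0.05 in each fit except that of regions called in at least 2 libraries, with 106. Most calls in that fit were regions with no hotspot in 1 group, which share the adjustment with the members. Same-numbered libraries did not deviate together (correlation -0.0164 over regions), and with the replicate number as a block 0 members passed and 1156 had an unadjusted p under 0.05, from 1216. Of members with an unadjusted p under 0.05, 30.9% were lower in AG when centred on the median, 47.5% on the mean and 78.3% without centring.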
